A study of Canis lupus familiaris with 28 samples.

Results

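Hemophagocytic histiocytic sarcoma (HHS) was compared directly with the other histiocytic sarcomas (HS) in tumors of Bernese Mountain Dogs (BMDs). The comparison used 18 of the 28 samples of the series. The 3 tumors labelled HHS were HS53 (lung), HS46 (liver) and HS41 (lymph node), and the 15 tumors labelled HS came from the lung (5), liver (3), spleen (2), thorax (2), a thoracic mass (1), a leg mass (1) and a shoulder (1). All 18 were frozen tissue that histopathology had judged to be mostly tumor, and the labels gave neither ages nor treatments. Blood of 3 unaffected BMDs and spleen, lung and liver of German Shepherd Dogs, 1 sample each, served as background levels only. The study left out 1 of these controls as an outlier, whereas all of them are shown here. RNA was sequenced after depletion of ribosomal and globin RNA, and reads counted on genes numbered 134634569 to 171712524 per HHS tumor and 99701394 to 171815073 per HS tumor, so that 3 counts, taken as the limit of what a count of 0 allows, amounted to between 0.0175 and 0.0301 CPM (counts scaled to the library's total). The lymph node held no HS tumor, so that site and diagnosis cannot be told apart for HS41.

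HS is a cancer of the histiocytic lineage, which comprises macrophages and dendritic cells. The usual form in dogs has features of dendritic cells, whereas the hemophagocytic form arises from macrophages that engulf red blood cells, and is known for anemia and for a diffuse infiltration of the spleen, liver and bone marrow. Macrophages break down engulfed red cells in lysosomes and recycle the heme and iron. Genes related to these steps, to antigen presentation and to cholesterol synthesis were therefore followed as lists.

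No gene was called as different between HHS and HS. The cutoffs of an adjusted p under 0.05 and an absolute log2 fold change (log2FC) above 1.5 were passed by 0 of 19853 tested genes (0%) in edgeR's quasi-likelihood test with Benjamini-Hochberg adjustment, while DESeq2 called 1. The smallest adjusted p was 0.211, of *RSPO2*. At an unadjusted p under 0.05 stood 797 genes (4.01%), 362 of them higher (1.82%) and 435 lower (2.19%) in HHS, and 472 of these (2.38%) also had an absolute log2FC above 1.5, with 208 higher (1.05%) and 264 lower (1.33%). The median log2FC of all genes was -0.11, and 43.1% of them were positive. A name was at hand for 1006 of the tested genes. By the gene table of RefSeq, 944 of the 958 that could be matched lie on 6 chromosomes, so the named genes below are not an even sample of the transcriptome.

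No closeness of the HHS tumors to each other was detected. Over the 500 most variable genes, their mean distance to each other in log2 CPM was 107, which 511 of all 816 possible sets of 3 tumors equalled or undercut (exact permutation test, one-sided, p = 0.626), and over all tested genes the p was 0.382. Over the 500 most variable genes, HS41 and HS46 were each other's nearest tumor at a distance of 76.7. HS53 was 126 from HS41 and 119 from HS46, and its nearest tumor was HS36, an HS tumor of the liver, at 92.2. Over all tested genes, HS46 was nearest to HS50, an HS tumor of the liver, at 203 (HS41 was at 214), and HS53 to HS35, an HS tumor of the lung. Over the 500 most variable genes, the distances between HHS and HS tumors ranged from 82.2 over a median of 102 to 145, and those among HS tumors from 76.2 over 106 to 148.

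**Figure D1:**
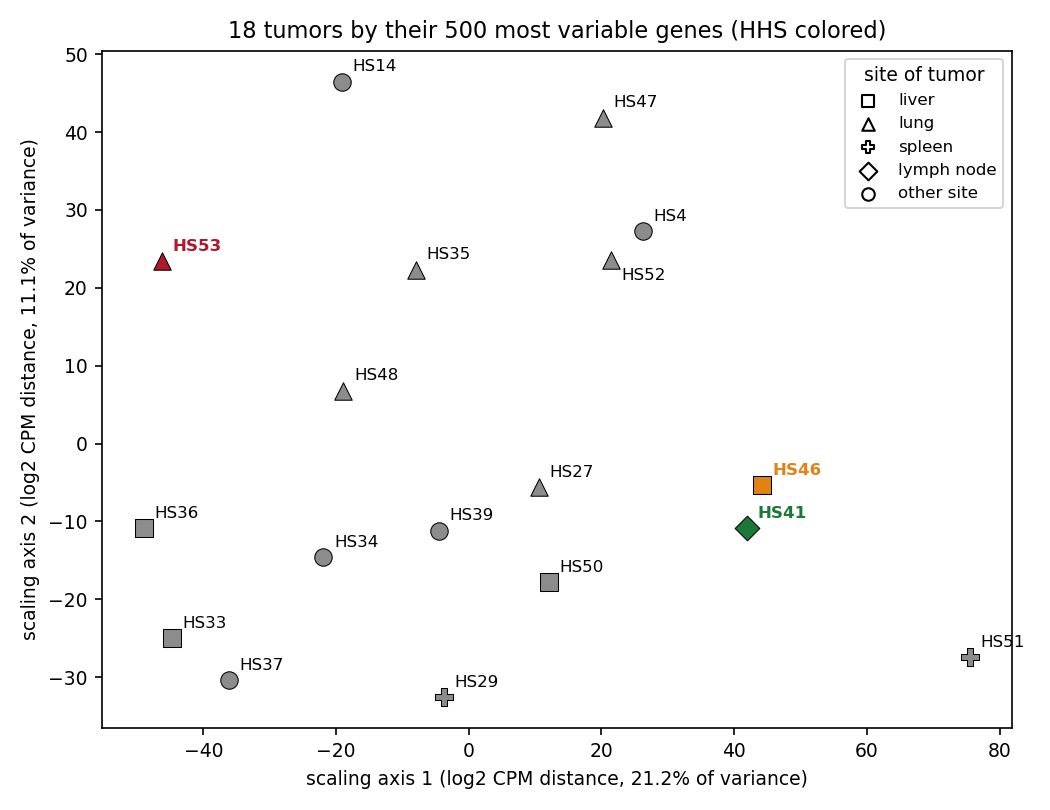
Multidimensional scaling of the 18 tumors by their distances over the 500 most variable genes, with both axes in units of log2 CPM distance and the symbol giving the site. HS41 and HS46 sit side by side, with a distance of 76.7 between them, while HS53 sits on the opposite side of the first axis among HS tumors.

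HS53 stood apart from the other HHS tumors in single genes as well. It held the highest value of all 18 tumors in 1794 genes (9.04%) and was assigned the lowest in 1984 (9.99%), which ranked 2 and 3 among the tumors. HS41 was highest in 606 genes and lowest in 387, ranking 18 and 17, and HS46 was highest in 650 and lowest in 1065. The HS tumor with the most extreme values, HS29 of the spleen, was highest in 2057 genes and lowest in 2909. HS29 also had the fewest counts, 99701394 against a median of 140932000 over all tumors. The part of depth in these numbers was not tested. Tumors without counts in a gene tie for its lowest value, and rounding assigned each such gene to a single tumor. The numbers of lowest values and their ranks therefore depend in part on how these ties were broken.

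Only 15 of the 19853 genes (0.0756%) separated the diagnoses fully, with all 3 HHS tumors above or all below the 15 HS tumors. In 13 of them HHS was higher (0.0655%) and in 2 lower (0.0101%). The filter on low counts keeps a gene with enough counts in any 3 tumors, which is the size of the HHS group. A gene near the floor can therefore enter by being high in HHS but not by being low there. The split of 13 to 2 is thus not an even comparison of the directions. The margins were narrow, since the gap between the nearest HHS and HS tumors was 0.00334 to 0.466 log2 CPM, with a median of 0.113. Of the 15 genes, 10 had a mean under 1 log2 CPM over the tumors. Their adjusted p-values by edgeR's quasi-likelihood test were 0.772 to 0.943. The most extreme HHS tumor was HS41 in 7 of them, HS46 in 2 and HS53 in 6. That all 3 HHS tumors clear the HS tumors was the criterion and does not show that they share a fold equally.

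Named genes among them were *JMJD4*, *DNAJB7* and *TULP1*, of which *JMJD4* alone had a mean of at least 1 log2 CPM. *JMJD4*, a hydroxylase that modifies a translation termination factor, stood at 2.90, 2.91 and 2.86 log2 CPM in HS41, HS46 and HS53, against 2.99 at the lowest, 3.73 in the median and 4.74 at the highest of the HS tumors. The 3 HHS tumors were nearly equal and lay just under the lowest HS tumor, with a log2FC of -1.00 (SE 0.39, 95% interval -1.82 to -0.18, unadjusted p = 0.019, adjusted p = 0.943 by edgeR). In the controls *JMJD4* ranged from 2.74 in a blood sample to 3.81 in another, which spans the gap between the diagnoses.

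*DNAJB7*, a member of the DnaJ family of co-chaperones, had counts of 247, 212 and 284 in HS41, HS46 and HS53, and its levels were 0.90, 0.35 and 0.82 log2 CPM against -2.26, -0.96 and 0.34 for the lowest, median and highest HS tumor. The tumor HS46 cleared the highest HS tumor by 0.00334 only. That HS tumor, HS35, had 238 counts, more than HS46, so that the separation of *DNAJB7* rests on the scaling of the libraries. *TULP1*, a gene known from photoreceptors, had 12, 17 and 10 counts in the HHS tumors, and its level of -3.72 log2 CPM in HS53 compared with -3.80 in the highest HS tumor. The highest HS tumor, HS52, also had 10 counts, so that the separation of *TULP1* rests on the scaling of the libraries. *TULP1* passed the filter on low counts only through the HHS tumors, in which it was high. *TULP1* was higher in the spleen and lung controls, at -2.61 and -0.66 log2 CPM, than in any HHS tumor.

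Among identifiers with no name, ENSCAFG00000008199 had the largest log2FC of the fully separated genes with a mean of at least 1 log2 CPM. It stood at 2.67, 2.65 and 4.49 log2 CPM in HS41, HS46 and HS53, against -0.52, 1.05 and 2.51 for the lowest, median and highest HS tumor. Its log2FC was 2.12 (SE 0.51, adjusted p = 0.772 by edgeR) and 1.22 without HS53, and the 6 controls lay between -0.74 and 0.60. ENSCAFG00000004341 stood at 5.98, 5.21 and 5.62 log2 CPM against 3.55, 4.51 and 5.18, with a log2FC of 1.12 (SE 0.32, adjusted p = 0.943 by edgeR). The controls lay between 4.14 and 4.99 for this identifier, below the 3 HHS tumors.

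**Figure D2:**
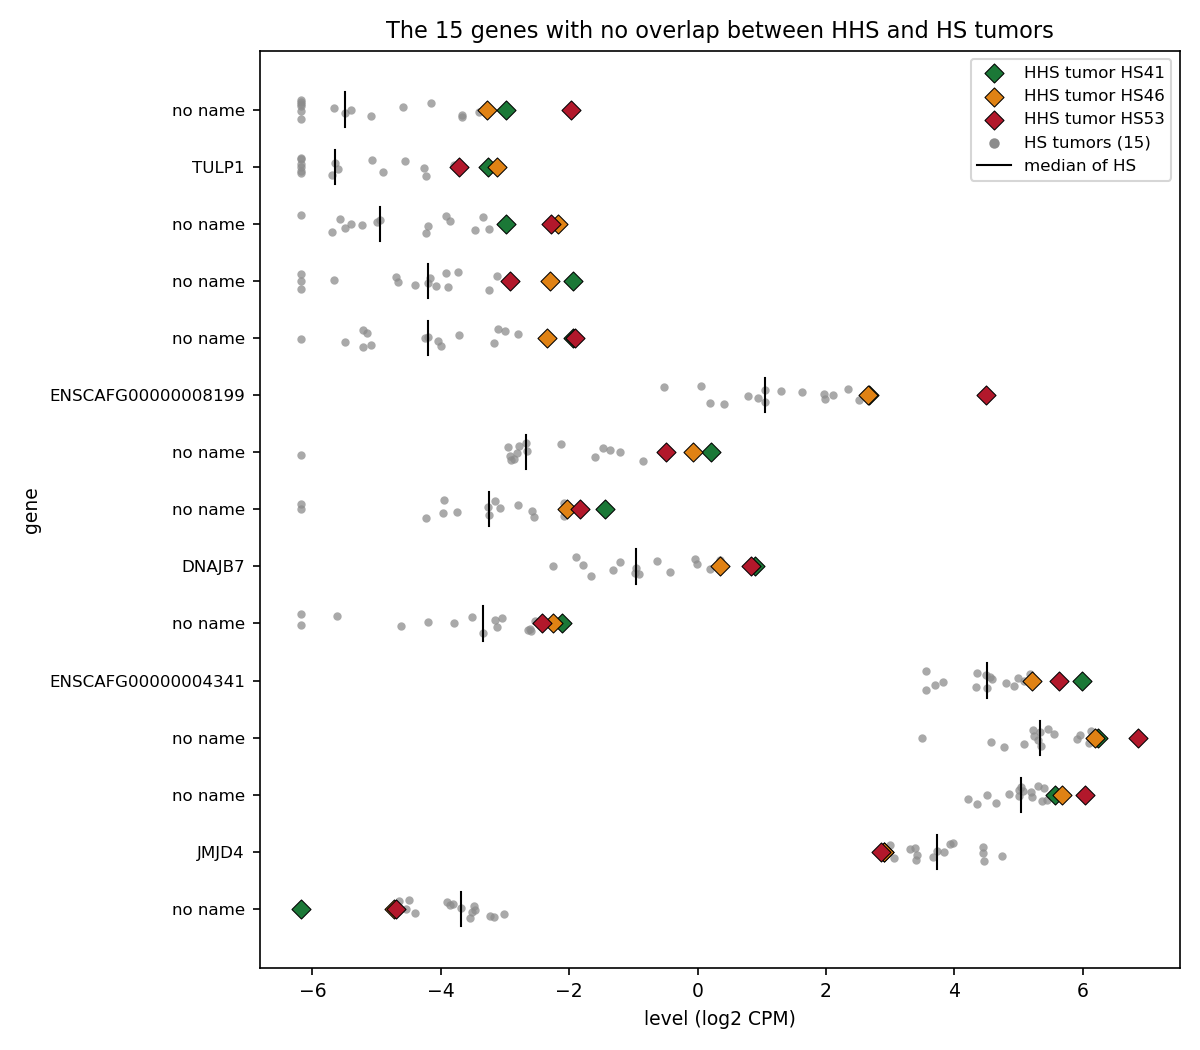
Level in log2 CPM of each of the 15 fully separated genes in the 3 HHS tumors (colored diamonds) and the 15 HS tumors (grey points, vertical bar at their median). Most of the genes lie below 1 log2 CPM, and the nearest HHS and HS tumors are at most 0.466 apart.

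Among genes with larger differences, full separation was rare. Of the 472 genes at an unadjusted p under 0.05 and an absolute log2FC above 1.5, 130 had no HHS tumor beyond the HS range on the side of the difference, 223 had 1, 111 had 2 and 8, which are among the 15, had all 3. Some ties at 0 counts were counted as beyond. *MAL2* was counted so in HS53, although HS29 and HS50 also had 0 counts. The 130 is thus a lower limit. The share with at most 1 tumor beyond was at least 74.8%, against at least 97.3% of all tested genes, where the 472 were chosen by the same contrast. HS53 was the most extreme HHS tumor in 257 of them (54.4%), HS46 in 134 and HS41 in 81, whereas over all tested genes HS53 led in 46.0%.

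The higher and the lower genes are given apart, because leaving out a tumor acts on them unequally by calculation. Of the 208 higher genes, HS53 led 133 (63.9%), and without the leading tumor only 52 (25%) kept a log2FC above 1.5 while 81 changed sign. Their median log2FC was 2.65 with and 0.52 without the leading tumor. Of the 264 lower genes, at least 129 had no HHS tumor below the HS range, since some ties at 0 counts were counted as below. Of the 264, 231 (87.5%) kept their fold without the leading tumor, with a median of 3.10 below HS with it and 2.78 without. Leaving out the leading tumor lowers any fold by construction, from a median of 0.457 to 0.0849 over all genes on the absolute scale. The fitted level of a group lies near the arithmetic mean of its scaled counts. Leaving out the lowest of 3 tumors can therefore raise it only slightly, whereas leaving out the highest can lower it without such a bound. The contrast between higher and lower genes is thus largely set by the calculation, and does not show that the HHS tumors share the lower values. The genes were chosen by the same fold, so these shares describe them and test nothing.

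**Figure D3:**
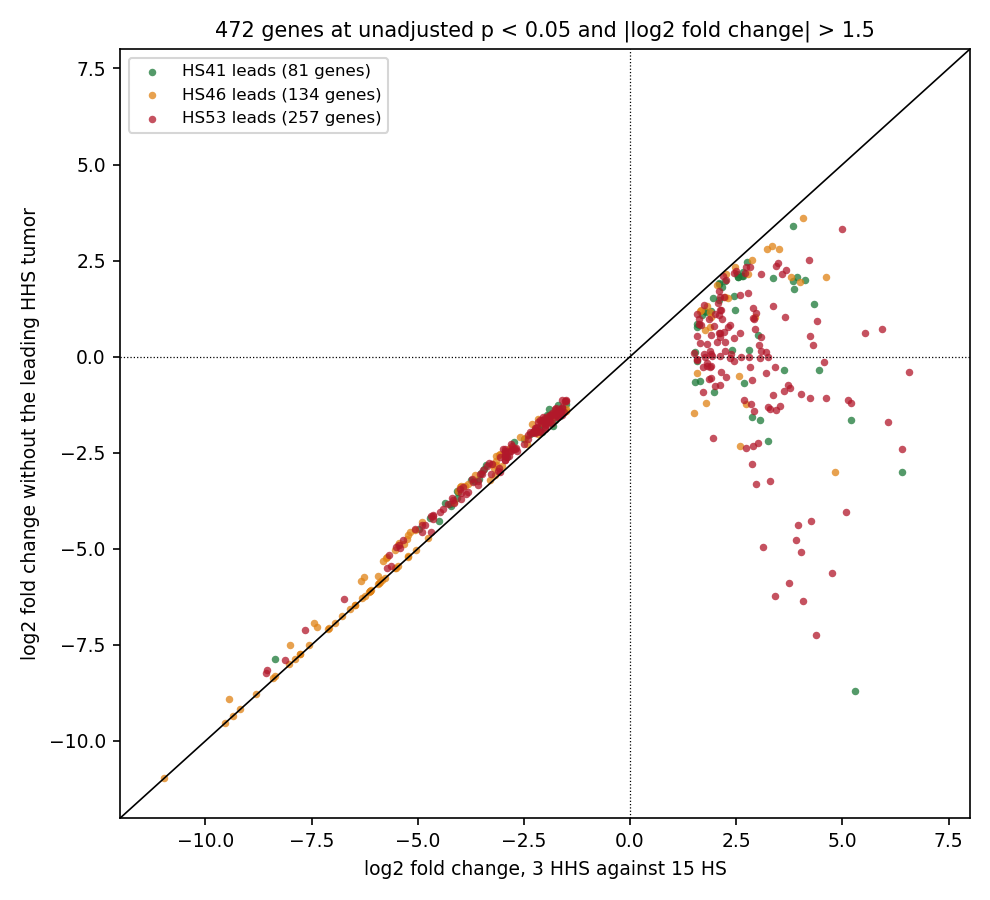
Each of the 472 genes by its log2FC in all tumors (horizontal) and after leaving out its leading HHS tumor (vertical), colored by the leading tumor, with the diagonal marking no change. The lower genes hold close to the diagonal, whereas the higher genes drop toward and below 0, 81 of them with a change of sign. The calculation itself allows the lower genes only a small change.

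The HHS tumors were also left out in turn. Without HS41 1030 genes stood at an unadjusted p under 0.05, without HS46 663 and without HS53 405, with 0, 1 and 0 genes called by edgeR's quasi-likelihood test. The gene called without HS46 was *RSPO2*, with an adjusted p of 0.0497. Any pair of HHS tumors was fully apart from HS in more genes than the 3 together, namely 236 for HS46 and HS53, 149 for HS41 and HS53 and 118 for HS41 and HS46.

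The 4 named genes with higher values in HHS and the smallest p-values follow, chosen after their values were seen, and then *PIM1*, a list member. *RSPO2*, a secreted protein that strengthens Wnt signals, had 24 counts in HS41, 12 in HS46 and 7618 in HS53, against 0, 17 and 98 counts in the lowest, median and highest HS tumor. HS41 and HS46 thus lay in the middle of the HS tumors and HS53 alone lay above them. The log2FC of 6.58 (SE 1.13, unadjusted p = 1.06e-05, adjusted p = 0.211 by edgeR) became -0.39 without HS53. HS53 came from the lung, and *RSPO2* was at 4.86 log2 CPM in the lung control and 5.56 in HS53. HS53 lay 8.93 above the mean of the 5 HS tumors of the lung. The source of the *RSPO2* RNA in HS53 was not tested.

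*GALR1*, a receptor of the neuropeptide galanin, was less dependent on one tumor. It stood at -1.71, 0.44 and 2.60 log2 CPM in HS41, HS46 and HS53, whereas the HS tumors had -6.17 (no counts), -5.70 and -0.90 as their lowest, median and highest levels. HS46 and HS53 lay above every HS tumor, and HS41 below 2 of them, HS52 at -0.90 and HS48 at -1.53, which came from the lung like HS53. Its log2FC was 4.98 (SE 1.38, 95% interval 2.10 to 7.86, unadjusted p = 0.00176, adjusted p = 0.943 by edgeR), with 3.33 without HS53. The 6 controls lay between -6.17 and -3.12, below each HHS tumor.

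*SRGAP1*, a GTPase-activating protein of the Slit and Robo pathway, rested mainly on HS53. Its levels of 0.03, 2.77 and 5.14 log2 CPM compared with -1.34, 0.08 and 3.33 in HS, and only HS53 was beyond the HS tumors. The log2FC of 2.90 (SE 0.77, unadjusted p = 0.00121, adjusted p = 0.943 by edgeR) became 1.00 without HS53. *KLHL38*, a Kelch family gene of skeletal muscle, stood at -3.76, -3.66 and 2.21 log2 CPM against -6.17, -3.32 and -0.48, and its log2FC of 3.31 (SE 1.14, adjusted p = 0.943) became -1.35 without HS53. *PIM1*, a kinase induced by cytokines, went the other way in HS53, with 7.45 and 7.77 log2 CPM in HS41 and HS46 above the highest HS tumor at 7.12, and 5.34 in HS53 below the lowest at 5.49. Its log2FC of 0.82 (SE 0.37, adjusted p = 0.943) became 1.26 without HS53, 0.66 without HS41 and 0.41 without HS46.

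Among named genes with lower values in HHS, *MRPL55*, *HNRNPA0* and *CENPM* each had a pair of HHS tumors below all HS tumors. *MRPL55*, a protein of the mitochondrial ribosome, stood at 2.89, 3.34 and 2.70 log2 CPM in HS41, HS46 and HS53, against 3.23, 4.37 and 6.76 for the lowest, median and highest HS tumor. HS41 and HS53 lay below all HS tumors, and the log2FC of -2.00 (SE 0.68, unadjusted p = 0.00822, adjusted p = 0.943 by edgeR) stayed between -2.18 and -1.88 without any single HHS tumor. *HNRNPA0*, an RNA-binding protein, had 2.97, 3.59 and 3.04 log2 CPM against 3.46, 4.45 and 5.52, again with HS41 and HS53 below HS. Its log2FC was -1.39 (SE 0.48, adjusted p = 0.943 by edgeR). *CENPM*, a protein of the centromere, had 1.83, 0.92 and 1.56 log2 CPM against 1.66, 2.52 and 3.52, with HS46 and HS53 below HS and a log2FC of -1.24 (SE 0.45, adjusted p = 0.943).

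The length of the genes moved with these differences. By the RefSeq table, the 18 matched named genes that were higher at an unadjusted p under 0.05 span a median of 75.8 kb of the genome, the 20 lower ones 8.15 kb and all 958 matched genes 29.6 kb. Across these 958 genes, which share libraries and are not independent, the log2FC and the span had a Spearman's rho of 0.31. In single tumors, the rho between span and the deviation from the HS median was 0.30 in HS46, 0.32 in HS53 and -0.08 in HS41, and it ranged from -0.27 to 0.34 in the HS tumors. The part of gene length in the results was not tested.

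**Figure D4:**
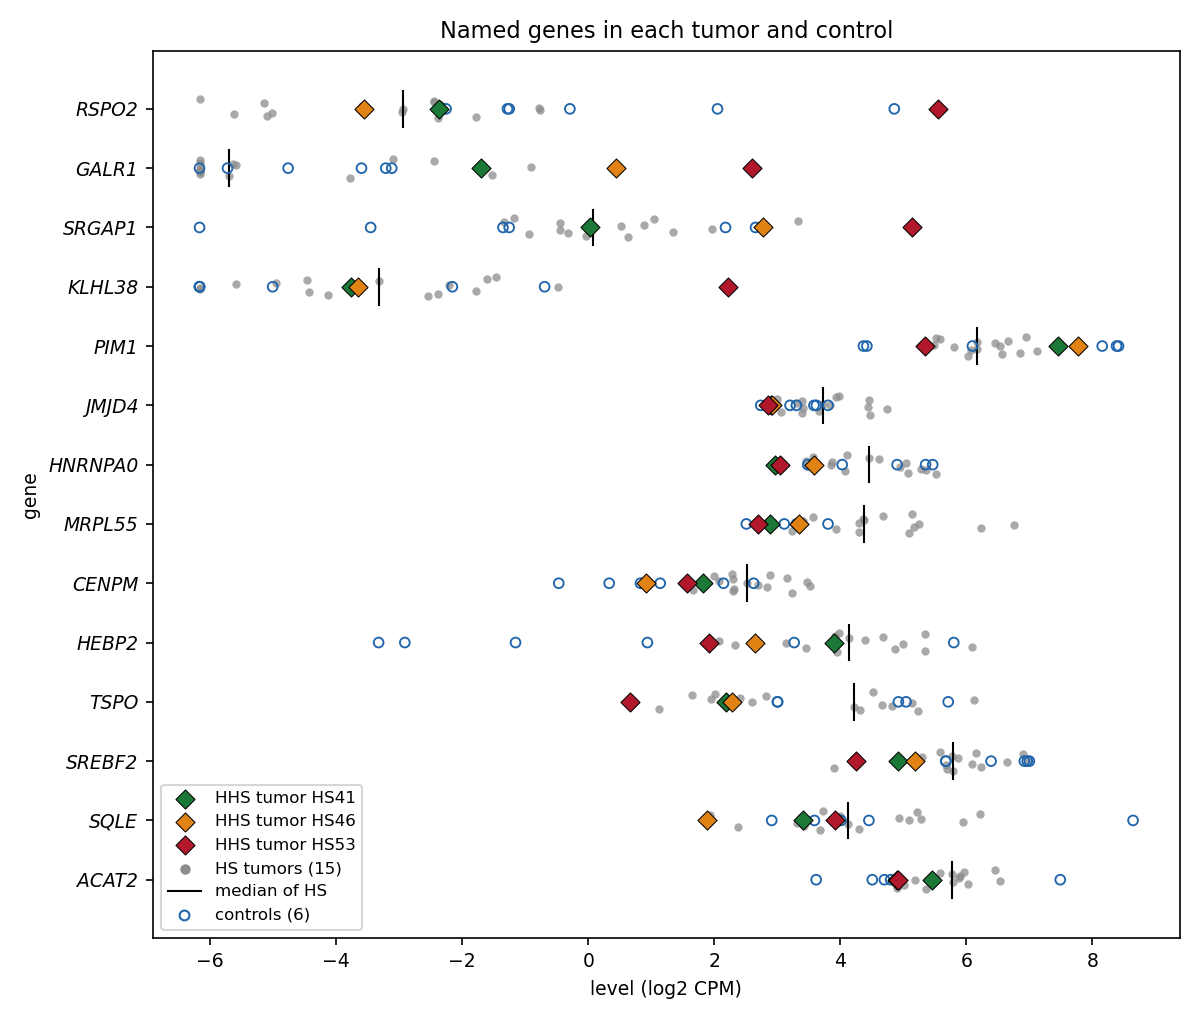
Level in log2 CPM of 14 named genes in the 3 HHS tumors (colored diamonds), the 15 HS tumors (grey points, vertical bar at their median) and the 6 controls (open circles). Among the tumors, *RSPO2* and *KLHL38* are high in HS53 alone, while the lung control has *RSPO2* at 4.86. *JMJD4* is the only gene shown in which all 3 HHS tumors clear the HS tumors.

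No macrophage or lysosome gene that could be followed stood at an unadjusted p under 0.05. In the list of macrophage and phagocyte markers, 0 of 10 tested genes stood at an unadjusted p under 0.05, with a median log2FC of -0.09 against -0.11 over all genes, and 5 were positive. The summed level of the list was 10.81, 11.97 and 12.65 log2 CPM in HS41, HS46 and HS53, against 10.97 to 13.49 in HS, so that HS41 lay below all HS tumors. *NCF4*, a subunit of the phagocyte oxidase, was below all HS tumors in HS46 and *PARVG* in HS53, at -0.42 against 0.92 log2 CPM in the lowest HS tumor. *LYZ*, the lysozyme of macrophages, was at 9.43, 10.96 and 12.05 log2 CPM in HS41, HS46 and HS53, inside the HS range of 7.89 to 13.21, and both diagnoses thus expressed it at high levels. Its log2FC was 0.32, with a 95% interval of -1.28 to 1.93 that leaves room for differences of either sign. Of 13 lysosomal genes, 0 stood at an unadjusted p under 0.05, and their median log2FC was 0.10. *CTSV*, a cathepsin, exceeded the highest HS tumor in HS53 only, at 7.28 against 6.82 log2 CPM.

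In heme and iron handling, 4 of the 12 listed genes could be tested, none of which was positive and 2 of which were lower at an unadjusted p under 0.05 (2.19% of all genes). The 4 were *TSPO*, *HEBP2*, *FECH* and *CYB5R3*, so that the breakdown of heme and the recycling of iron were not followed directly. The summed level of the 4 genes was 5.92, 6.37 and 6.39 log2 CPM in HS41, HS46 and HS53, against 6.23 to 8.20 in HS, so that HS41 lay below all HS tumors. *TSPO*, a mitochondrial membrane protein that binds cholesterol and porphyrins, stood at 2.19, 2.28 and 0.66 log2 CPM in HS41, HS46 and HS53, against 1.13, 4.22 and 6.12 for the lowest, median and highest HS tumor. All 3 HHS tumors lay below the HS median, and HS53 below every HS tumor. The log2FC of *TSPO* was -2.40 (SE 0.99, adjusted p = 0.943 by edgeR) and ranged from -2.63 to -2.04 without any single HHS tumor. *HEBP2*, a heme-binding protein, had 3.90, 2.65 and 1.91 log2 CPM against 2.07, 4.14 and 6.09 and a log2FC of -1.49 (SE 0.71, adjusted p = 0.943 by edgeR). *FECH*, which inserts iron into heme, and *CYB5R3*, which reduces methemoglobin, had a log2FC of -0.48 (95% interval -2.21 to 1.26) and -0.59 (-1.39 to 0.20). In tissue, fewer cells of a type and less RNA per cell cannot be told apart for any of these genes.

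From the genes of inherited hemophagocytic syndromes, only *STX11*, a syntaxin of cytotoxic granule release, had a name. It was at 2.53, 3.22 and 2.30 log2 CPM in the HHS tumors, inside the HS range of 0.72 to 4.48, with a log2FC of -0.66 (95% interval -1.98 to 0.66). The only tested gene of erythroid cells and megakaryocytes, *MPIG6B*, stood at 0.01, -1.66 and -0.42 log2 CPM against a HS range of -2.37 to 2.28.

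Antigen presentation by MHC class II showed a split within HHS. The summed level of the 8 tested class II genes was 13.7 log2 CPM in HS41, 13.7 in HS46 and 9.11 in HS53, against 11.4, 13.7 and 15.6 for the lowest, median and highest HS tumor. HS41 and HS46 thus lay at the HS median and HS53 below every HS tumor. HS53 was below all 15 HS tumors in 5 of the 8 genes (62.5%), compared with 10.7% of all tested genes, and HS41 and HS46 in none. The 10.7% includes genes, such as *MAL2*, in which HS53 tied with HS tumors at 0 counts. *DLA-DRA*, the alpha chain of the main class II molecule, was at 11.95, 12.50 and 7.77 log2 CPM, with a HS range of 9.02 to 14.31. *HLA-DRB1*, named by its human homolog, was at 12.65, 12.06 and 7.80, with a HS range of 9.81 to 14.30. *DLA-DMA*, which loads peptides onto class II, was at 8.21, 8.80 and 5.34, with a HS range of 6.84 to 10.26. The median log2FC of the list was -0.83, and 0 of the 8 genes stood at an unadjusted p under 0.05.

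In MHC class I antigen processing and interferon genes, HS53 was low in some members. HS53 lay below all HS tumors in 5 of 8 class I genes (62.5%), among them *TAP1*, the peptide transporter, at 6.11 against 8.84 in HS41, 9.40 in HS46 and 7.45 in the lowest HS tumor. *PSMB8*, a subunit of the immunoproteasome, was at 9.38, 8.44 and 4.28 log2 CPM in HS41, HS46 and HS53, with a HS range of 6.27 to 9.70. Over the 3 HHS tumors, the median log2FC was 0.01 for class I and 0.08 for the 14 interferon and cytokine genes, of which 0 stood at an unadjusted p under 0.05. *IRF1*, a transcription factor induced by interferon, was at 8.40, 8.95 and 4.94 log2 CPM with a HS range of 6.33 to 9.51, so that HS53 again lay below all HS tumors. It did so in 3 of the 14 genes (21.4%), while the share over all tested genes was 10.7% in HS53. The summed class I level of HS53, 10.67 log2 CPM, was within the HS range of 10.65 to 12.97. The class I and class II molecules themselves form families of similar copies, whose reads the counting could have left out or assigned to another copy.

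Cholesterol synthesis could be followed in 3 of 24 listed genes, none of them called. *SREBF2*, the transcription factor that drives the pathway, stood at 4.92, 5.19 and 4.26 log2 CPM in HS41, HS46 and HS53, against 3.90, 5.80 and 6.99 for the lowest, median and highest HS tumor. All 3 values lay below the HS median and within the HS range, with a log2FC of -1.17 (SE 0.47, unadjusted p = 0.0222, adjusted p = 0.943 by edgeR). *SQLE*, the squalene epoxidase, had 3.41, 1.89 and 3.92 log2 CPM against 1.94, 4.12 and 6.22, a log2FC of -1.39 (95% interval -2.97 to 0.19) and only HS46 below the HS tumors. *ACAT2*, which joins acetyl-CoA units, had 5.46, 4.89 and 4.91 log2 CPM against 4.89, 5.78 and 6.53 and a log2FC of -0.62 (95% interval -1.33 to 0.09). In the liver control *SQLE* reached 8.65 log2 CPM and *ACAT2* 7.49, above every tumor.

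Of 28 cell cycle and replication genes, 9 were positive, 1 was lower at an unadjusted p under 0.05 (*CENPM*, above) and the median log2FC was -0.24. The summed level of the list was 10.2, 10.1 and 10.3 log2 CPM in HS41, HS46 and HS53, inside the HS range of 9.85 to 10.8. Of 13 immediate early and MAPK genes, 7 were positive and *PIM1* alone stood at an unadjusted p under 0.05. *IER3*, an early response gene, had the lowest log2FC of that list, -2.52 (SE 1.22, 95% interval -5.07 to 0.02).

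Markers of other cells in the tissue varied by tumor. The summed hepatocyte markers, 11 genes, were at 9.36, 3.06 and 6.65 log2 CPM in HS41, HS46 and HS53, with a HS range of 3.61 to 10.7 and 14.6 in the liver control. HS46, a liver tumor, lay below all HS tumors, with *FBP1* at -0.92 log2 CPM against 1.13 in the lowest HS tumor. The defining marker *PLG* was near 0 in all 3 HHS tumors, at -5.55, -3.77 and -3.32 log2 CPM, and at -6.17 to 6.15 in HS. The lung epithelium markers, 8 genes, summed to 3.58, 2.57 and 2.96 log2 CPM, within the HS range of 1.71 to 5.76 and far below the lung control at 10.7. *MAL2*, one of them, had a log2FC of -5.52 (SE 2.43, adjusted p = 0.943 by edgeR). Its levels of -4.28, -5.66 and -6.17 log2 CPM in HS41, HS46 and HS53 lay within the wide HS range of -6.17 to 2.78, which was highest in HS37. *GRHL2* and *ROS1* were at or under -0.75 log2 CPM in all 3 HHS tumors.

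Lymphocyte markers summed to 6.94, 7.29 and 5.94 log2 CPM in HS41, HS46 and HS53, inside the HS range of 5.69 to 8.33, and their median log2FC was 0.29 with 5 of 8 positive. The T cell genes *THEMIS* and *IL2RB* nevertheless split the HHS tumors, with 1.76, 3.20 and -2.62 log2 CPM for *THEMIS* and 5.56, 5.83 and -0.26 for *IL2RB*, so that HS53 was low in both. Stroma and vessel markers summed to 7.45, 8.10 and 7.78 log2 CPM, inside the HS range of 6.22 to 9.90. Of these 16 genes, 1, the fibroblast gene *PI16*, stood at an unadjusted p under 0.05, with a log2FC of -4.90 (SE 2.07, adjusted p = 0.943 by edgeR). Its levels of 0.24, -0.46 and -1.42 log2 CPM in HS41, HS46 and HS53 all lay inside the wide HS range of -2.95 to 7.35, which was highest in HS34. Skeletal muscle markers summed to 7.69, 5.66 and 6.54 log2 CPM, inside the HS range of 2.90 to 9.13, with a median log2FC of -0.16 over 9 genes. The part of these cells in the differences above was not tested.

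**Figure D5:**
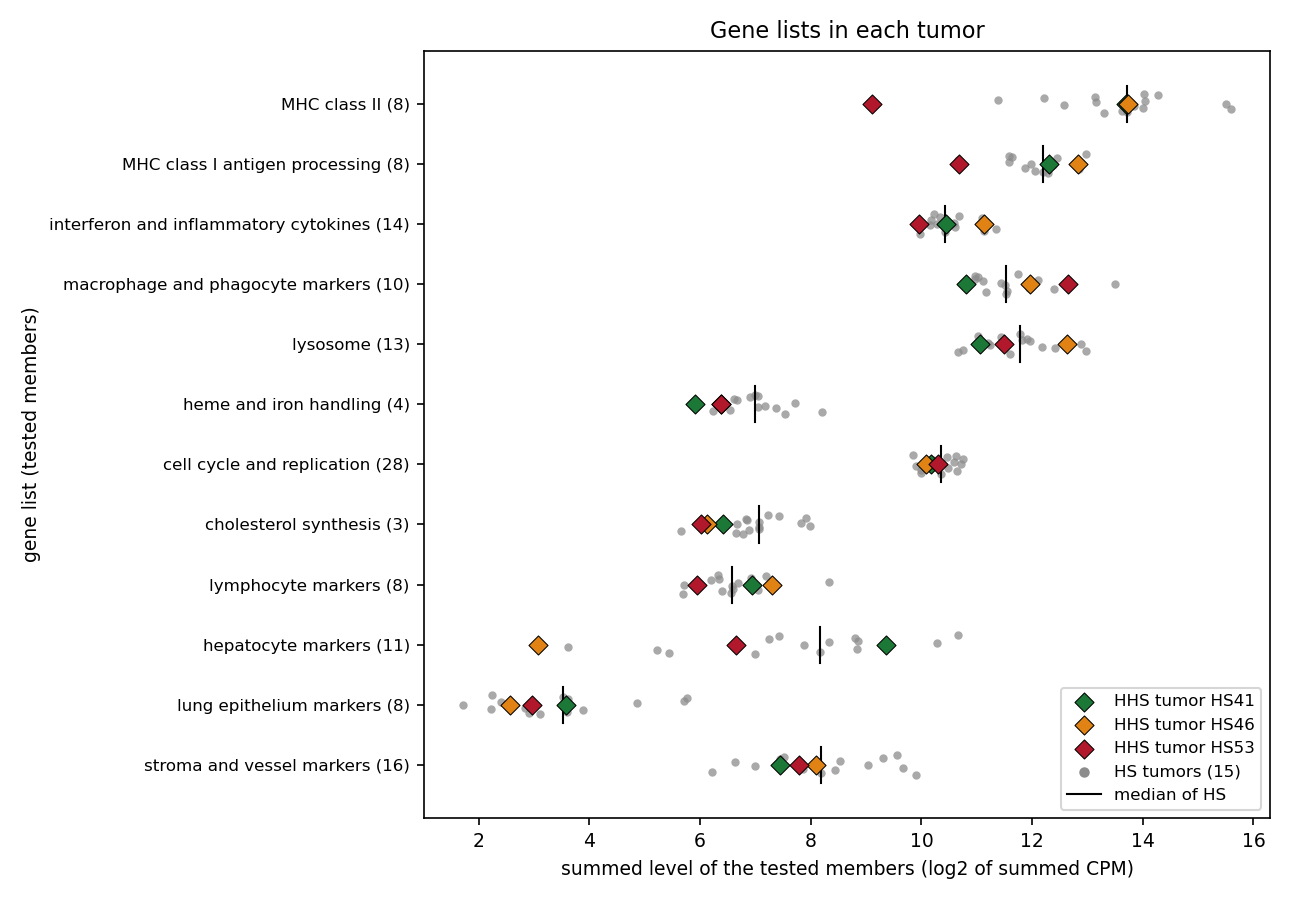
Summed level (log2 of summed CPM) of the tested members of 12 gene lists in the 3 HHS tumors (colored diamonds) and the 15 HS tumors (grey points, vertical bar at their median), with the number of tested members in parentheses. HS53 is far below the others in MHC class II, at 9.11 against 11.4 or more, and HS46 is lowest in hepatocyte markers, at 3.06.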

How the data were processed

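After trimming (cutadapt 3.7) and alignment to CanFam3.1 (STAR 2.7.10a), the authors counted reads per gene (HTSeq 2.0.0) and deposited raw counts for 32704 Ensembl identifiers, with no normalization or filter. The annotation release and strand setting are not given in the sources used here, so reads of overlapping genes may have been left out or assigned to the wrong gene. The column headers of all tumors share one prefix and those of the blood controls carry another, which the labels do not explain. From the deposited counts, the 18 tumors were fitted with edgeR 4.0.16 in R 4.3.3 (TMM, filterByExpr, quasi-likelihood test, Benjamini-Hochberg), without covariates. Levels are log2 CPM with a prior count of 2, on which 0 counts equal -6.17. Tumors with 0 counts tie at this level, and rounding decided between them. Numbers of lowest or leading tumors, and of tumors below all others, can therefore include such ties. The 15 fully separated genes hold none, as their smallest gap was 0.00334. DESeq2 1.42.0, other size factors and filters, site and left-out tumors were alternatives. Figures were drawn with matplotlib 3.10.9.

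The members, lists and rules were chosen with earlier results of these data known. The rule names called genes, fully separated genes with a mean of at least 1 log2 CPM, list members that were fully separated or at an unadjusted p under 0.05, *SQLE*, *ACAT2* and *SREBF2*, and up to 2 unnamed identifiers a direction. *RSPO2*, *GALR1*, *KLHL38*, *SRGAP1*, *MRPL55*, *HNRNPA0*, *TULP1*, *DNAJB7* and further list members were named after their values were seen. Names came from the study's tables, for 1126 identifiers (1025 dog symbols, 101 human homologs). The RefSeq gene table (UU_Cfam_GSD_1.0) holds none of the identifiers and was matched by symbol, for gene order and span only. No 2 tumor libraries were duplicates (smallest chi-square 1164 per gene). Diagnoses came from the labels. HS37 is labelled HS but absent from the authors' HS list, and the tumor order in the header of one of the study's tables disagrees with that of the others. The labels do not number the dogs, but the paper counts the 18 tumor samples as 18 affected dogs. The p-values therefore measure the spread between dogs. The limit of 3 counts covers counting error only. The cell lines are not analysed here, and some single genes are not reported here.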

Additional observations from a re-analysis of the deposited data

How the results depend on the processing

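Calls by edgeR numbered 0 under most alternatives. They were 4 with no filter on low counts (*RSPO2* and 3 unnamed identifiers, each high in 1 HHS tumor), 797 with an unadjusted p under 0.05 and no fold cutoff (472 with the fold cutoff kept), and 0 to 2 without any single tumor, with 1 without HS46 and 2 without HS51. DESeq2 called 1, an unnamed identifier with a log2FC of -7.75 (adjusted p = 0.00122), and also 1 on all genes, an alternative that was chosen after seeing the data, as was library size only.

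The fully separated genes numbered 27 with no filter (12 shared with the 15), 6 at 1 CPM in 3 tumors (5 shared), where the fewer genes tested set the count, and 636 in liver and lung tumors with site as a covariate (13 shared), where the fewer tumors set it. They were 118 to 236 without any single HHS tumor, and 15 to 29 without any single HS tumor, with 25, 24 and 29 without HS35, HS48 and HS50. They were 15 with relative log expression factors (12 shared) and 19 with library size only (9 shared), which shifted the median of all genes by 0.03 and 0.05. The split of genes at an unadjusted p under 0.05 became 428 higher and 397 lower with relative log expression factors, and 377 and 399 with library size only.

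Without any single HHS tumor, the log2FC of *RSPO2* ranged from -0.39 to 7.23 and that of *KLHL38* from -1.35 to 3.93, negative without HS53 in both. *RSPO2* passed the cutoffs with no filter (6.67, adjusted p = 0.038 by edgeR) and without HS46 (7.23, adjusted p = 0.0497), and its adjusted p ranged from 0.038 to 1.00 over its alternatives. Of the 20 genes recomputed under every alternative, the other 18 kept their sign and stayed uncalled. Among list members given as examples, the sign of *LYZ* turned to -0.48 and of *CTSV* to -0.32 without HS53, and that of *TAP1* to -0.46 without HS46.

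Without any single HHS tumor, the median log2FC of hepatocyte markers ranged from -2.49 (without HS41) to -1.03 and that of lung epithelium markers from -4.91 (without HS53) to -1.21. That of lymphocyte markers was -0.74 in liver and lung tumors and ranged from -0.40 (without HS46) to 0.62 without any single HHS tumor, and that of skeletal muscle markers -0.87 to 0.04 without any single HHS tumor (lowest without HS53) and 0.51 in liver and lung tumors. The cause was not tested.

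No paired analysis was possible because HHS and HS tumors are separate tumors and the replicate numbers only name them. Depth limits the fully separated genes in particular, since 10 of the 15 had a mean under 1 log2 CPM.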

Other observations

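Named genes that neighbor each other in the RefSeq gene table had differences of mostly one sign in 3 stretches, a pattern seen after the values were known and given here without a test. The 7 named genes from *TRIM11* to *JMJD4*, among them the mitochondrial genes *IBA57* and *MRPL55* and the guanylate kinase *GUK1*, were all negative, and 6 of them stood at an unadjusted p under 0.05, with a median log2FC of -1.27. The median deviation of the 7 genes from the HS median was -0.89 in HS41, -1.03 in HS46 and -1.24 in HS53, and it ranged from -1.04 to 2.11 in the HS tumors, so that HS53 alone lay below the HS range.

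In the 40 named genes from *LAPTM4B* to *SYBU*, a stretch that includes *VPS13B*, *OXR1* and *RSPO2*, 27 were positive, 8 were higher and 1 was lower at an unadjusted p under 0.05, and the median log2FC was 0.36. The median deviation was 0.11 in HS41, 0.28 in HS46 and 0.94 in HS53, with a HS range of -0.50 to 0.33, so that HS53 lay above all HS tumors and the other HHS tumors among them. In the 25 named genes from *RHPN1* to *RECQL4* on the same chromosome, 23 were negative, with a median log2FC of -0.70, and 1 was higher and 1 lower at an unadjusted p under 0.05. Their median deviation was 0.01 in HS41, -0.88 in HS46 and -0.50 in HS53, all within the HS range of -1.28 to 0.94. The genes of the first and the last stretch span a median of 5.14 kb and 7.38 kb and those of the second 60.7 kb, so that position and gene length cannot be told apart here.

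The 3 unnamed identifiers called without a filter on low counts had 157 counts in HS46, 431 in HS53 and 82 in HS53 as their highest values, with at most 2 counts in any HS tumor and at most 1 in the other HHS tumors.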
